A study of Mus musculus with 12 samples.

Results

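Prdm1, Prdm14, Tfap2c and Dppa3 were followed through 6 groups of mouse germ cells made in culture or taken from embryos. They are the genes best known from the founding of primordial germ cells (PGCs), the precursors of eggs and sperm. A member was any probe set, the group of short probes that reads 1 transcript on an Affymetrix array, that the platform annotation assigned to only 1 of these genes. That gave 6 of 45101 probe sets, and so 4 of 18195 annotated genes. Tfap2c had 3 probe sets and the other genes 1 each, and each gene was represented by its probe set with the highest mean over the 12 arrays.

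In 4 of the groups the cells were PGC-like cells (PGCLCs), cells induced from embryonic stem (ES) cells of C57BL/6 background that carried the BVSC pair of reporters, Blimp1-mVenus and stella-ECFP. These groups were d3 (female, after 3 days of induction), d6 female (after 6 days), d3ag6 (female cells of day 3, kept for 6 more days in aggregates with somatic cells of female E12.5 gonads) and d6 male (the male counterpart at day 6). The other groups were PGCs of female embryos at embryonic day 12.5 (E12.5) and PGCs at embryonic day 9.5 (E9.5), whose sex is recorded as unknown. These PGCs carried stella-EGFP and came from C57BL/6 reporter males crossed with wild-type BDF1 females, so PGCLCs and PGCs also differed in genetic background. Each group had 2 arrays called biological replicates in the titles, and no culture, litter or ES cell clone is named, so the p-values measure the spread between these arrays.

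PGCs are set apart in the mouse epiblast when BMP4 and WNT3 from neighbouring tissue switch on a small set of transcription factors. PRDM1, also called BLIMP1, is a zinc finger repressor that shuts down the somatic program. PRDM14, a second PR domain protein, restores pluripotency genes and holds down FGF signalling and DNA methyltransferases, and TFAP2C, or AP-2 gamma, is a DNA-binding factor placed downstream of PRDM1. DPPA3, also called STELLA, comes on as the fate is settled and is known for guarding DNA methylation in the fertilised egg.

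The reporters bear on what can be read from 2 of the genes. PGCLCs were marked by reporters of Prdm1 (Blimp1) and Dppa3 (stella), and PGCs by a reporter of Dppa3, and the cells of every group were sorted on reporter fluorescence. High Dppa3 in all groups, and high Prdm1 in PGCLCs, was therefore a condition of collection, and differences in their levels are differences among cells already chosen for their reporters. In sorted pools, fewer positive cells and less RNA per cell cannot be told apart.

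All 4 genes were well above the filter level of 4.81, the median of all values, on all 12 arrays. Values are log2 signals after quantile normalization, so a difference of 1 is a doubling, and levels are compared only within a probe set. Across the 6 groups, a moderated F test in limma called 37.0% of the 13436 genes tested at an adjusted p under 0.05. Among the members it called Tfap2c (adjusted p = 0.0140) and not Prdm14 (0.0634), Dppa3 (0.0702) or Prdm1 (0.146). The group means of Prdm1 spanned 0.86, those of Tfap2c 0.68, those of Prdm14 0.62 and those of Dppa3 0.55. The median over all genes tested was 0.85.

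**Figure D1:**
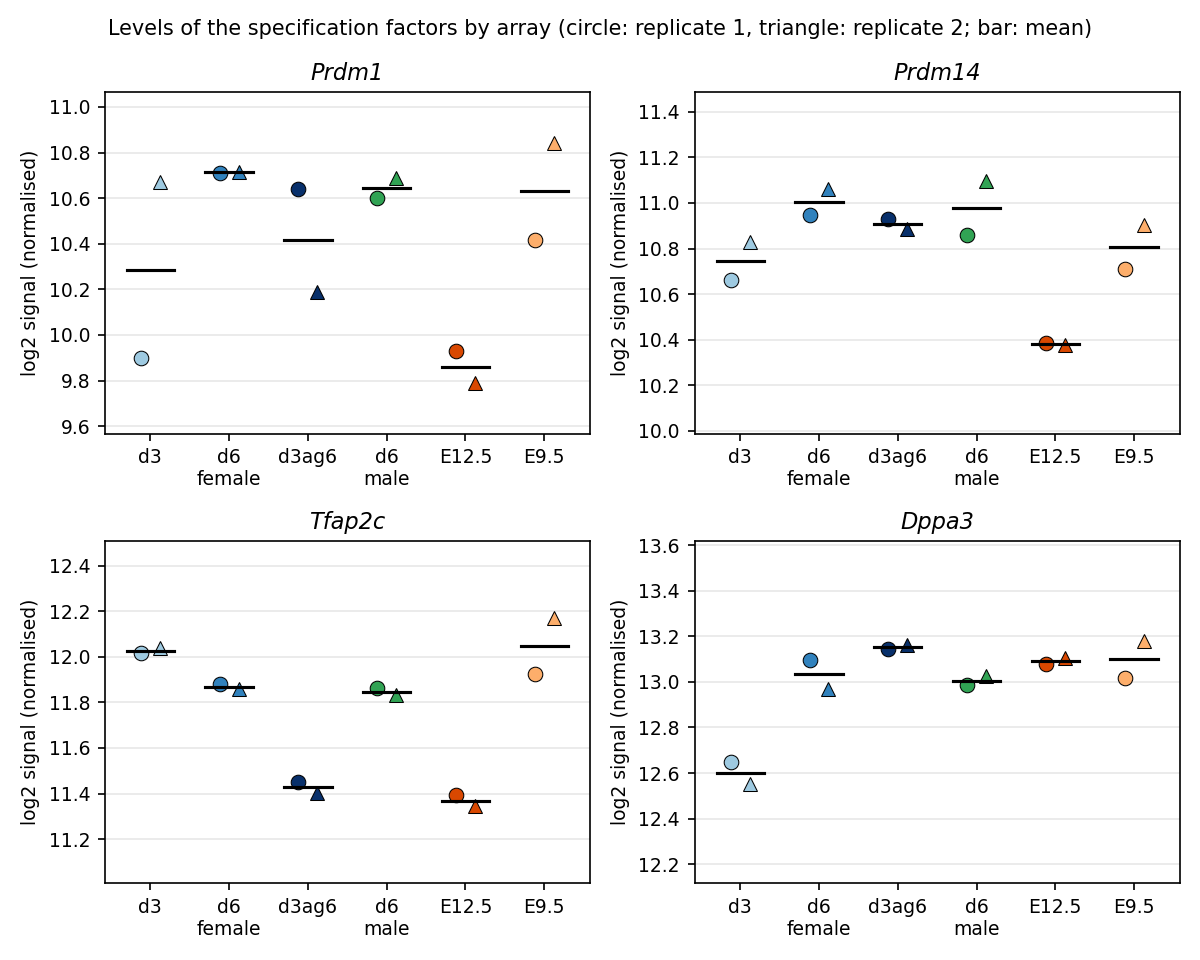
Log2 normalised signal of each gene (vertical axis, its own range per panel and not starting at 0) on the 2 arrays of each group (horizontal axis), with circles for replicate 1, triangles for replicate 2 and bars for the group mean. Prdm1 and Prdm14 are lowest in E12.5 PGCs, Tfap2c is low in d3ag6 PGCLCs and E12.5 PGCs, and Dppa3 is low in d3 PGCLCs.

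Prdm1, the repressor at the head of the program, had its lowest levels in E12.5 PGCs but passed the test in no comparison of the fit over all arrays. Its signal was 9.90 and 10.67 in d3 PGCLCs, 10.71 and 10.72 in d6 female PGCLCs, 10.64 and 10.19 in d3ag6 PGCLCs and 10.60 and 10.69 in d6 male PGCLCs. In PGCs it was 9.93 and 9.79 at E12.5, and 10.42 and 10.84 at E9.5. The d3, d3ag6 and E9.5 pairs were spread widely, with SDs of 0.54, 0.32 and 0.30, while the d6 female arrays nearly coincided. Within groups Prdm1 had an SD of 0.29, against a median of 0.25 over all genes tested.

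By mean, Prdm1 ran from d6 female PGCLCs (10.71) through d6 male PGCLCs (10.65), E9.5 PGCs (10.63), d3ag6 PGCLCs (10.41) and d3 PGCLCs (10.29) to E12.5 PGCs (9.86). No neighbouring groups in this order differed by the test. The largest differences were those of E12.5 PGCs. Prdm1 stood 0.86 higher in d6 female PGCLCs than in E12.5 PGCs (95% interval 0.25 to 1.46, adjusted p = 0.0556). It was 0.79 higher in d6 male PGCLCs than in E12.5 PGCs (0.18 to 1.40, adjusted p = 0.0619). E12.5 PGCs stood at −0.77 relative to E9.5 PGCs (−1.38 to −0.16, adjusted p = 0.0680). In each of these comparisons the arrays of the groups did not overlap. That was so for 39 of the 60 pairs of groups over the 4 members, and for 7 of 15 for Prdm1. How often it holds over all genes was not counted, so it adds no weight. None of these differences passed after adjustment over all genes. They lie near the threshold: the d6 female difference from E12.5 PGCs passed under 3 alternatives (adjusted p 0.0159 to 0.0401), the d6 male difference under 4 (0.0416 to 0.0496) and the E12.5 and E9.5 difference under 1.

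In d3ag6 PGCLCs the mean of Prdm1 lay between its levels in d6 female PGCLCs and in E12.5 PGCs, with neither difference called. The difference was −0.30 against d6 female PGCLCs (−0.91 to 0.31, adjusted p = 0.567) and 0.56 against E12.5 PGCs (−0.05 to 1.16, adjusted p = 0.262). Arrays of d3ag6 PGCLCs lay below both d6 female arrays and above both E12.5 arrays.

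Prdm14, the factor that keeps pluripotency genes on in PGCs, was lowest in E12.5 PGCs, with means of 10.38 there and 10.75 to 11.00 in the other groups. Its signal was 10.66 and 10.83 in d3 PGCLCs, 10.95 and 11.06 in d6 female PGCLCs, 10.93 and 10.89 in d3ag6 PGCLCs and 10.86 and 11.10 in d6 male PGCLCs. In PGCs it was 10.39 and 10.38 at E12.5, and 10.71 and 10.90 at E9.5. Both E12.5 arrays lay below every other array. By mean the order was d6 female (11.00), d6 male (10.98), d3ag6 (10.91), E9.5 (10.81), d3 (10.75) and E12.5 (10.38), and no neighbours in it differed by the test.

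Prdm14 was 1.54-fold higher in d6 female PGCLCs than in E12.5 PGCs (log2 difference 0.62, 95% interval 0.27 to 0.97, adjusted p = 0.0222). It was 1.51-fold higher in d6 male PGCLCs than in E12.5 PGCs (0.60, 0.25 to 0.95, adjusted p = 0.0222). These were its only calls among the 15 pairs of groups, and they rest on few arrays. The d6 female call was lost whichever array was left out (adjusted p 0.0766 to 0.117). The d6 male call was lost without d6 male replicate 2 or either E12.5 array (0.105 to 0.109).

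The other differences from E12.5 PGCs did not pass. Prdm14 stood 0.53 above E12.5 PGCs in d3ag6 PGCLCs (0.18 to 0.88, adjusted p = 0.0710) and 0.36 above them in d3 PGCLCs (0.02 to 0.71, adjusted p = 0.128). E12.5 PGCs stood at −0.43 relative to E9.5 PGCs (−0.78 to −0.08, adjusted p = 0.0770). Among the PGCLCs, d3ag6 and d6 female cells differed by −0.10 (−0.45 to 0.25, adjusted p = 0.772).

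Tfap2c, the AP-2 factor, was low in d3ag6 PGCLCs and in E12.5 PGCs and was the member called in the most comparisons, 6 of 15. Its signal was 12.02 and 12.04 in d3 PGCLCs, 11.88 and 11.86 in d6 female PGCLCs, 11.45 and 11.40 in d3ag6 PGCLCs and 11.86 and 11.83 in d6 male PGCLCs. In PGCs it was 11.39 and 11.35 at E12.5, and 11.92 and 12.17 at E9.5. The 4 low arrays did not overlap any of the other 8. Replicates lay close together, with a within-group SD of 0.07, and 2.25% of the genes tested had a smaller one.

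In culture, Tfap2c fell by 0.60 in d3ag6 PGCLCs relative to d3 PGCLCs, which is 0.66 times the d3 level (95% interval −0.92 to −0.28, adjusted p = 0.0282). Relative to d6 female PGCLCs the difference was −0.44 (−0.76 to −0.12) and did not pass (adjusted p = 0.105). Between d6 female and d3 PGCLCs it was −0.16 (−0.48 to 0.16, adjusted p = 0.659). In the embryo, Tfap2c fell by 0.68 in E12.5 PGCs relative to E9.5 PGCs, to 0.63 times the E9.5 level (−0.997 to −0.358, adjusted p = 0.00924).

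Across culture and embryo, Tfap2c was 0.66 higher in d3 PGCLCs than in E12.5 PGCs (0.34 to 0.98, adjusted p = 0.0101). It was 0.50 higher in d6 female PGCLCs (0.18 to 0.82, adjusted p = 0.0378) and 0.48 higher in d6 male PGCLCs (0.16 to 0.80, adjusted p = 0.0376) than in E12.5 PGCs. In d3ag6 PGCLCs it fell by 0.62 relative to E9.5 PGCs (−0.94 to −0.30, adjusted p = 0.0145). Between d3ag6 PGCLCs and E12.5 PGCs the difference was 0.06 (−0.26 to 0.38, adjusted p = 0.868). Ordered by mean, E9.5, d3, d6 female and d6 male did not differ from each other by the test, nor did d3ag6 and E12.5. The d3ag6 and d6 male difference was −0.42 (−0.74 to −0.10, adjusted p = 0.0727) and passed under 6 of 14 alternatives, among them every other choice of probe set (0.0261 to 0.0482).

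Each of the 6 calls of Tfap2c was lost when some single array was left out, although none turned in sign. The d3ag6 and d3 difference kept a value of −0.62 to −0.58 with adjusted p of 0.0863 to 0.137. The E12.5 and E9.5 difference lost its call without E12.5 replicate 1 (0.0571) or replicate 2 (0.0678) and kept it without E9.5 replicate 1 (−0.80, adjusted p = 0.0142) or replicate 2 (−0.56, 0.0482). The d3 and E12.5 difference was lost without E12.5 replicate 1 (0.0590) or replicate 2 (0.0735). The d6 female difference from E12.5 PGCs (0.126 to 0.182) and the d6 male one (0.0923 to 0.168) were lost without any 1 of their arrays. The d3ag6 and E9.5 difference was lost without d3ag6 replicate 1 (0.0623), d3ag6 replicate 2 (0.0833) or E9.5 replicate 2 (0.0736). With 1 array left out, a group of 1 is taken to vary like the other groups, and the number of all genes called between d3ag6 and d3 PGCLCs also dropped, to between 588 and 955 against 1430 with all arrays.

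**Figure D2:**
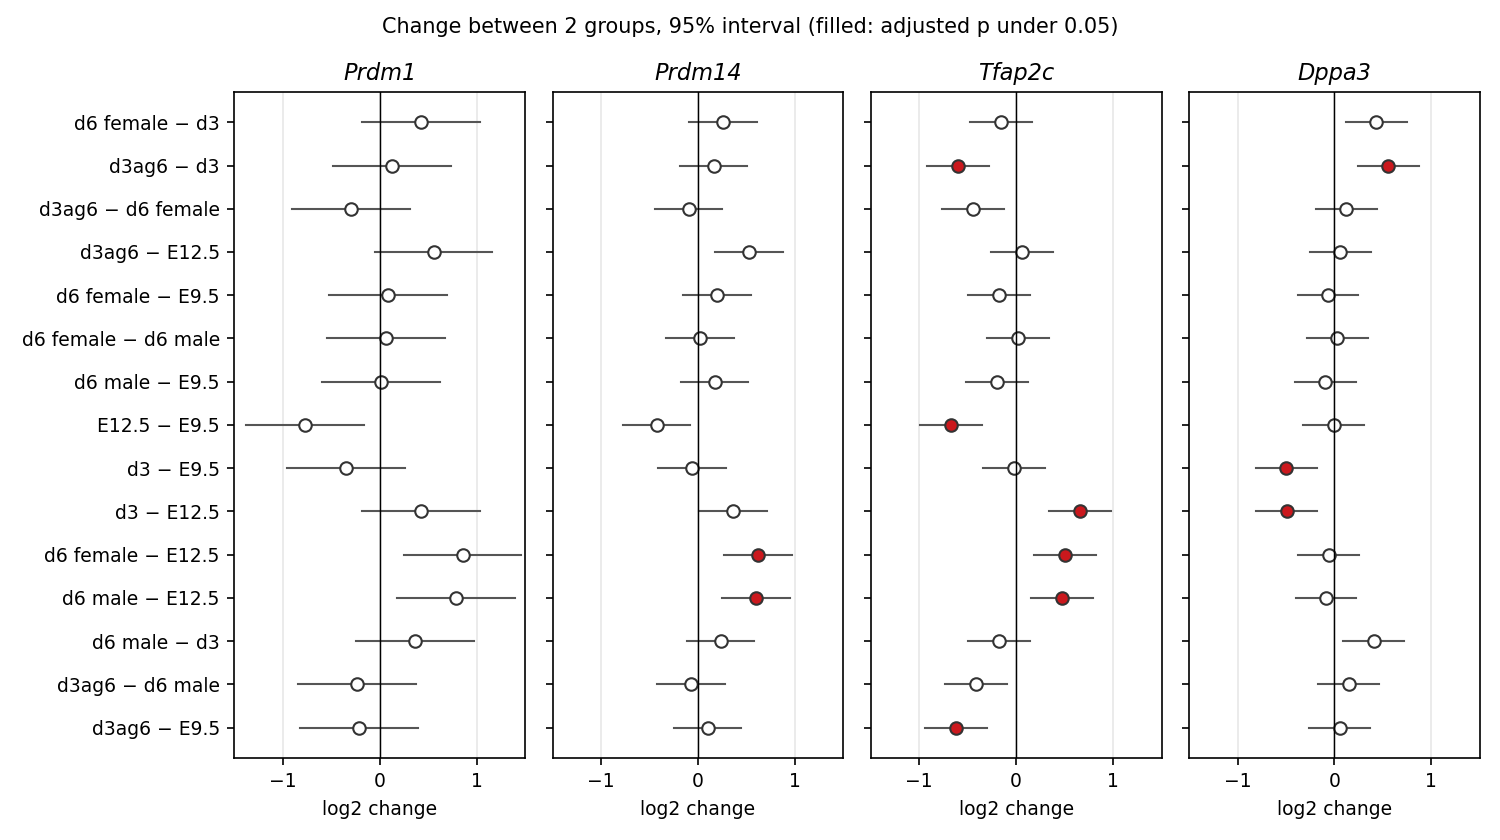
Log2 difference between 2 groups (horizontal axis) for each gene in 15 comparisons (vertical axis, named as first group minus second), with 95% intervals from limma's moderated t and red points where the adjusted p is under 0.05. Tfap2c has 6 red points, Dppa3 has 3, Prdm14 has 2 and Prdm1 has none.

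The first and second probe sets of Tfap2c were low in the same groups. The second probe set read 9.56 and 9.83 in d3ag6 PGCLCs against 10.65 and 10.54 in d3 PGCLCs, a difference of −0.91 (adjusted p = 0.0298). It read 9.58 and 9.80 in E12.5 PGCs against 10.42 and 10.92 in E9.5 PGCs, a difference of −0.98 (adjusted p = 0.0109). The first and second probe sets thus made the same calls in both comparisons.

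The third probe set, the dimmest by mean, was chosen as an alternative after its values were seen. It read 8.91 and 8.48 in d3ag6 PGCLCs and 8.65 and 10.66 in d3 PGCLCs, so its d3 arrays lay far apart. With it, neither the d3ag6 and d3 difference (−0.96, adjusted p = 0.346) nor the E12.5 and E9.5 difference (−1.36, adjusted p = 0.113) passed. It did not set E12.5 PGCs apart from d3 PGCLCs either, since d3 replicate 1 read below both E12.5 arrays, at 9.54 and 9.55 (d3 minus E12.5 difference 0.11, adjusted p = 0.925). It set d3ag6 PGCLCs at −0.85 relative to E12.5 PGCs (adjusted p = 0.430), where the first probe set gave 0.06.

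**Figure D3:**
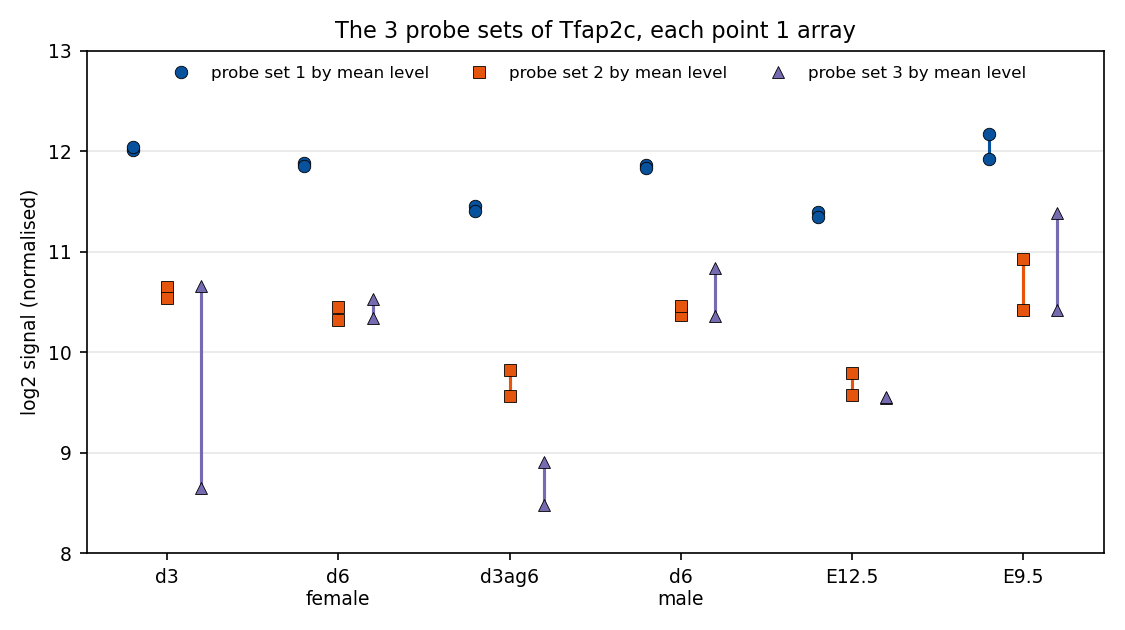
Log2 normalised signal (vertical axis, not starting at 0) of the 3 probe sets of Tfap2c on the 2 arrays of each group (horizontal axis), with a line joining the arrays of a group. Circles mark the probe set that represents the gene, and circles and squares are low in d3ag6 PGCLCs and E12.5 PGCs. The triangles of d3 PGCLCs lie at 8.65 and 10.66, on either side of those of E12.5 PGCs.

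Dppa3, the gene behind the stella reporters, was lowest in d3 PGCLCs. Its signal was 12.65 and 12.55 in d3 PGCLCs, 13.10 and 12.97 in d6 female PGCLCs, 13.15 and 13.16 in d3ag6 PGCLCs and 12.98 and 13.03 in d6 male PGCLCs. In PGCs it was 13.08 and 13.10 at E12.5, and 13.02 and 13.18 at E9.5. Both d3 arrays lay below every other array, and the remaining 10 lay between 12.97 and 13.18. By mean the order was d3ag6 (13.15), E9.5 (13.10), E12.5 (13.09), d6 female (13.03), d6 male (13.01) and d3 (12.60), and no neighbours in it differed by the test.

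Dppa3 rose 1.47-fold in d3ag6 PGCLCs relative to d3 PGCLCs (log2 difference 0.55, 95% interval 0.24 to 0.87, adjusted p = 0.0360). In d3 PGCLCs it was lower than in E12.5 PGCs by a log2 difference of −0.49 (−0.81 to −0.18, adjusted p = 0.0331) and lower than in E9.5 PGCs by −0.50 (−0.81 to −0.18, adjusted p = 0.0441). In d6 female PGCLCs it stood 0.43 above d3 PGCLCs (0.12 to 0.75) and did not pass (adjusted p = 0.147). In d6 male PGCLCs it stood 0.40 above d3 PGCLCs (0.09 to 0.72, adjusted p = 0.103).

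All 3 calls of Dppa3 were lost whichever array was left out. The d3ag6 and d3 difference then had adjusted p of 0.0840 to 0.153, the d3 and E12.5 difference 0.0768 to 0.155, and the d3 and E9.5 difference 0.0672 to 0.164. Array maxima were 13.76 to 13.93, so Dppa3 read near the top of the scale, and a loss of proportion there was not tested. Between E12.5 and E9.5 PGCs, Dppa3 differed by −0.01 (−0.32 to 0.31, adjusted p = 0.974). Between d3ag6 PGCLCs and E12.5 PGCs it differed by 0.06 (−0.25 to 0.38, adjusted p = 0.851).

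Over the 15 pairs of groups, 11 of 60 tests of the 4 members were called (18.3%), and 28306 of the 201540 tests of all genes were. These tests share groups and are not independent. In d3ag6 against d3 PGCLCs, 2 of 4 members were called, Tfap2c lower and Dppa3 higher, where 10.6% of all genes tested were called. In d6 female against d3 PGCLCs (4.06% of genes called), in d3ag6 against d6 female PGCLCs (6.39%) and in d3ag6 PGCLCs against E12.5 PGCs (9.03%), none of the 4 was called. In E12.5 against E9.5 PGCs 1 of 4 was called, Tfap2c, where 23.6% of genes were.

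Against E9.5 PGCs, no member was called in d6 female PGCLCs (13.9% of genes called) or in d6 male PGCLCs (10.6%), Dppa3 was called in d3 PGCLCs (14.3%) and Tfap2c in d3ag6 PGCLCs (23.1%). Against E12.5 PGCs, 2 of 4 members were called in d3 PGCLCs (22.8%), in d6 female PGCLCs (19.4%) and in d6 male PGCLCs (24.8%). None was called in d6 male against d3 PGCLCs (9.38%) or in d3ag6 against d6 male PGCLCs (17.2%). These comparisons share arrays with each other, so their calls are not separate evidence.

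No member passed the test between female and male PGCLCs at day 6. The differences of d6 female from d6 male PGCLCs were 0.07 for Prdm1 (−0.54 to 0.68), 0.02 for Prdm14 (−0.32 to 0.37), 0.02 for Tfap2c (−0.30 to 0.34) and 0.03 for Dppa3 (−0.29 to 0.34). Adjusted p ran from 0.912 to 0.946, and 1.47% of all genes tested were called. A sex difference of up to these limits lies within the intervals. Sex and array code cannot be told apart here, since both d6 male arrays carry other codes than the d6 female arrays.

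The d6 male and E9.5 arrays share their codes pair by pair, which allowed a comparison within each code. Prdm14 stood higher in d6 male PGCLCs than in E9.5 PGCs within both codes, by 0.15 in EA0831 and 0.19 in EA0842. Tfap2c differed by −0.06 and −0.34 and Dppa3 by −0.03 and −0.15 in the same order of codes. Prdm1 had no common direction, with 0.19 in EA0831 and −0.15 in EA0842. In the fit over all arrays none of the 4 passed (adjusted p of 0.473 to 0.986).

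The design also allows the change from culture in aggregates to be set against the change in the embryo, as d3ag6 minus d6 female against E12.5 minus E9.5. For Tfap2c the first change was −0.44 and the second −0.68, which differed by 0.24 (−0.22 to 0.69, adjusted p = 0.562). For Prdm1 the changes were −0.30 and −0.77 (difference 0.47, −0.39 to 1.33, adjusted p = 0.538). For Prdm14 they were −0.10 and −0.43 (difference 0.33, −0.16 to 0.82, adjusted p = 0.442). For Dppa3 they were 0.12 and −0.01 (difference 0.13, −0.32 to 0.57, adjusted p = 0.765). The test of this difference called 5.75% of all genes and none of the members.

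Array codes and markers of other cell types moved with some groups. The d3, d6 female, d3ag6 and E12.5 arrays all carry code EA1013, so code and group cannot be told apart in any comparison of these with E9.5 PGCs or d6 male PGCLCs. Comparisons among the 4 EA1013 groups kept their calls of Tfap2c and Dppa3 in a fit of those 8 arrays alone. On E9.5 replicate 1, all 4 members read lower than on replicate 2. The mean of 10 tested mesenchyme markers was 8.31 and 7.27 on the E9.5 arrays, replicate 1 first. It was 5.54 and 6.51 on the d3ag6 arrays, in the same order, and 5.18 to 6.09 elsewhere. Of the 11 listed, 10 were above the filter level on both E9.5 arrays. The mean of 10 tested blood and macrophage markers was 6.58 and 6.86 on the d3ag6 arrays and 6.73 and 5.79 on the E9.5 arrays, against 4.91 to 5.78 elsewhere. The mean of 10 tested gonadal somatic markers was 6.00 and 6.09 on the d3ag6 arrays and 6.05 and 5.36 on the E9.5 arrays, against 4.63 to 5.45 elsewhere. Of the 12 gonadal somatic genes listed, 9 were above the filter level on both d3ag6 arrays, and no gene of the lists of cell type markers stood at 0 on an array. The mean of 9 tested endothelium markers was 7.95 and 7.88 on the d6 male arrays, against 5.601 to 7.513 elsewhere. That of 9 tested endoderm markers was 5.52 and 6.51 on the d3ag6 arrays, against 5.21 to 6.11 elsewhere. Whether cells of these types were present, and any part of them in the low Tfap2c of d3ag6 PGCLCs, was not tested. The same was not tested for E12.5 PGCs, where Tfap2c was low too. Their gonadal somatic values were 5.45 and 5.34, and 8 of the 12 genes listed were above the filter level on both arrays. Their mesenchyme values were 5.30 and 5.18.

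Genes of gonadal germ cells, the stage that E12.5 PGCs have reached, checked the labels. Of 13 tested genes of gonadal germ cells, 12 rose in E12.5 relative to E9.5 PGCs, where 23.6% of all genes were called. In d3ag6 relative to d3 PGCLCs 9 rose, where 10.6% of all genes were called. The median log2 difference of that list was 3.51 in the embryo, against 0.08 over all genes, and 2.97 in culture, against 0.00 over all genes. These medians are without a floor. Stra8, a gene of meiotic entry, averaged 10.45 in d3ag6 PGCLCs and 4.28 in d3 PGCLCs. The d3 value is below the filter level, and the difference of 6.17 was 5.64 with values floored there. Tfap2c was thus low in the groups where gonadal germ cell genes were high. Prdm14 had its lowest mean in E12.5 PGCs, and its difference between d3ag6 PGCLCs and E12.5 PGCs did not pass (0.53, adjusted p = 0.0710).

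Bmp4 and the BMP response genes Id1 and Id3 fell in d3ag6 PGCLCs, and Id1 fell in d6 female PGCLCs too. The list of inducing signals held BMP ligands, their receptors and SMAD proteins, and early response genes, and 12 of its 16 genes were tested. In d6 female relative to d3 PGCLCs 1 fell and none rose, where 4.06% of all genes were called. It was Id1 (log2 difference −2.01, adjusted p = 0.00731), and its call was lost without d6 female replicate 1 (−1.88). Id1 averaged 8.91 in d6 female and 7.98 in d6 male PGCLCs. In d3ag6 relative to d3 PGCLCs 3 fell and none rose, where 10.6% of all genes were called, with a list median of −0.02 against 0.00 over all genes. Id1, a direct BMP response gene, fell by 3.90 to 7.02 in d3ag6 PGCLCs, against 10.92 in d3 PGCLCs (adjusted p = 0.000131). Bmp4, the inducing ligand, fell by 2.26 (adjusted p = 0.000886) and Id3, a second BMP response gene, fell by 0.98 (adjusted p = 0.00250). All 3 kept their calls with any 1 array left out. Relative to d6 female PGCLCs 3 of the 12 fell in d3ag6 PGCLCs and none rose, where 6.39% of all genes were called. Id1 fell by 1.89 (adjusted p = 0.00753), Id3 fell by 1.08 (0.00343) and Bmp4 fell by 1.39 (0.0146). Bmp4 lost its call in 2 of 4 fits with 1 array left out.

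Id1 and Id3 were lower in d3ag6 PGCLCs than in E12.5 PGCs as well. Of the 12 tested, 2 were called lower and 2 higher in this comparison, where 9.03% of all genes were called. Id1 averaged 7.02 in d3ag6 PGCLCs and 11.54 in E12.5 PGCs (log2 difference −4.52, adjusted p = 9.5e-05), and Id3 averaged 10.54 in d3ag6 PGCLCs and 11.81 in E12.5 PGCs (−1.27, adjusted p = 0.000924). Both calls held with any 1 array left out. The receptor Bmpr2 (1.32, adjusted p = 0.0267) and Smad1, which carries the BMP signal to the nucleus (1.10, adjusted p = 0.0250), were higher in d3ag6 PGCLCs, and both calls were lost without any 1 of the 4 arrays. In E12.5 relative to E9.5 PGCs, 1 of the 12 rose and 2 fell, where 23.6% of all genes were called. Id1 rose by 0.91 (adjusted p = 0.0478), Smad1 fell by 0.88 (0.0302) and the receptor Bmpr1b fell by 0.70 (0.0423). With values floored at the filter level, Bmpr1b had an adjusted p of 0.0554. The Id1 call was lost without any 1 array, and the other calls held only without E9.5 replicate 2.

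Among the somatic and epiblast genes that PRDM1 and PRDM14 are known to hold down, Evx1 fell in culture. Of 18 tested, 2 fell and 1 rose in d3ag6 relative to d3 PGCLCs, where 10.6% of all genes were called, with a list median of −0.43 against 0.00 over all genes. Evx1, a homeobox gene of the primitive streak, averaged 4.16 in d3ag6 PGCLCs and 8.68 in d3 PGCLCs (log2 difference −4.52, adjusted p = 6.2e-05), and kept its call with any 1 array left out. The d3ag6 value is below the filter level of 4.81, under which values have no sure order, and with values floored there Evx1 fell by 3.87. Fgf8, a ligand of the streak, averaged 2.75 in d3ag6 PGCLCs, also below that level, and 6.12 in d3 PGCLCs. It fell by 1.30 with the floor (adjusted p = 0.00061), against a difference of −3.37 without it (adjusted p = 0.0248), and the difference without the floor lost its call without any 1 array. Fgfr2, an FGF receptor, rose by 1.07 (adjusted p = 0.0342), which held only without d3 replicate 1.

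In d6 female relative to d3 PGCLCs, 3 of the 18 fell and none rose, where 4.06% of all genes were called, with a list median of −0.67 against −0.01. Evx1 fell by 2.30 (adjusted p = 0.00287). It lost its call with only the compared arrays (0.0563) and kept it in the other alternatives. Fgf5, a marker of epiblast, averaged 3.41 in d6 female and 4.70 in d3 PGCLCs, both below the filter level, and its difference of −1.29 (adjusted p = 0.0198) was −0.068 with the floor (adjusted p = 0.879). Fgf8 fell by 1.30 with the floor (adjusted p = 0.00197), and its difference without it was −4.06 (adjusted p = 0.0231). Without the floor, Fgf5 and Fgf8 each held in 1 of 4 fits with 1 array left out. Evx1 was lower in d3ag6 than in d6 female PGCLCs too, by a log2 difference of −2.22 (adjusted p = 0.00245), and lower than in E12.5 PGCs, by −2.51 (adjusted p = 0.000773), in every fit with 1 array left out, and with the floor by −1.56 and −1.86. Evx1 was the only 1 of the 18 that fell in either comparison, and 1 rose in each. Of all genes, 6.39% and 9.03% were called. Fgf5 rose by 1.13 in d3ag6 relative to d6 female PGCLCs (adjusted p = 0.0273), a difference of 0 with the floor. Dnmt3l was 2.82 higher in d3ag6 PGCLCs than in E12.5 PGCs (adjusted p = 0.0369), and 1.91 higher with the floor (adjusted p = 0.118).

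In the embryo, 5 of these 18 genes fell and none rose in E12.5 relative to E9.5 PGCs, where 23.6% of all genes were called, with a median of −0.71 against 0.08 over all genes. Hoxb1, a somatic patterning gene, averaged 2.79 in E12.5 PGCs and 6.70 in E9.5 PGCs (log2 difference −3.91, adjusted p = 0.000212). Hoxb2 averaged 3.36 in E12.5 PGCs and 6.91 in E9.5 PGCs (−3.56, adjusted p = 0.00619), and Fgf5 4.48 in E12.5 PGCs and 6.31 in E9.5 PGCs (−1.83, adjusted p = 0.00110). These calls held with any 1 array left out. The E12.5 values of all 3 are below the filter level, and with the floor Hoxb1 fell by 1.89 (adjusted p = 0.00168) and Hoxb2 fell by 2.10 (adjusted p = 0.0390), while Fgf5 kept its call (adjusted p = 0.000112). Myc, a growth regulator, fell by 1.44 (adjusted p = 0.00751) and lost its call in 1 of 4 such fits. Without E9.5 replicate 1, the array with the highest mesenchyme markers, 5 fell and 1 rose. Hox genes are also expressed in mesenchyme, and the share of E9.5 signal from such cells was not tested.

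Among pluripotency and germline genes that accompany the founding factors, Itgb3 rose in culture, and Nanog fell in d3ag6 relative to d6 female PGCLCs. In that comparison 1 of 19 tested rose and 1 fell, where 6.39% of all genes were called. Itgb3 rose by 0.79 (adjusted p = 0.0294), and Nanog had a log2 difference of −1.99 (adjusted p = 0.0422). Both calls were lost with no filter (0.0622 and 0.0849) and with only the compared arrays (0.0556 and 0.0655). They were also lost without any 1 array, with differences of 0.75 to 0.83 for Itgb3 and −2.52 to −1.47 for Nanog. Of 19 tested, 2 rose and 1 fell in d3ag6 relative to d3 PGCLCs, where 10.6% of all genes were called, with a list median of −0.09 against 0.00 over all genes. Itgb3, an integrin subunit used to isolate PGCLCs, rose by 2.28 to 9.96 in d3ag6 PGCLCs, against 7.68 in d3 PGCLCs (adjusted p = 0.000132), with any 1 array left out as well. Tcl1, an AKT cofactor, rose by 1.17 (adjusted p = 0.0139), lost in 3 of 4 fits with 1 array left out. Sox2, a pluripotency factor, fell by 0.55 (adjusted p = 0.0401), lost in all 4.

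In E12.5 relative to E9.5 PGCs, 5 of these 19 rose and 4 fell, where 23.6% of all genes were called, with a list median of −0.11 against 0.08. Dppa2 rose by 1.91 (adjusted p = 0.000983) and Dppa4 by 1.40 (adjusted p = 0.000779), a pair of linked genes of pluripotent cells. Alpl, the alkaline phosphatase that stains early PGCs, fell by 1.85 (adjusted p = 0.00502), and Ifitm3, also called fragilis, fell by 1.25 (adjusted p = 0.000803). All 4 calls held with any 1 array left out. In d3ag6 PGCLCs relative to E12.5 PGCs 4 of the 19 rose, where 9.03% of all genes were called, Ifitm3 by 0.92 (adjusted p = 0.00725), and the pluripotency genes Zfp42 by 1.35 (0.0134), Esrrb by 0.59 (0.0387) and Klf2 by 0.91 (0.0483). Ifitm3 kept its call in 2 of 4 fits with 1 array left out and the other 3 in none.

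**Figure D4:**
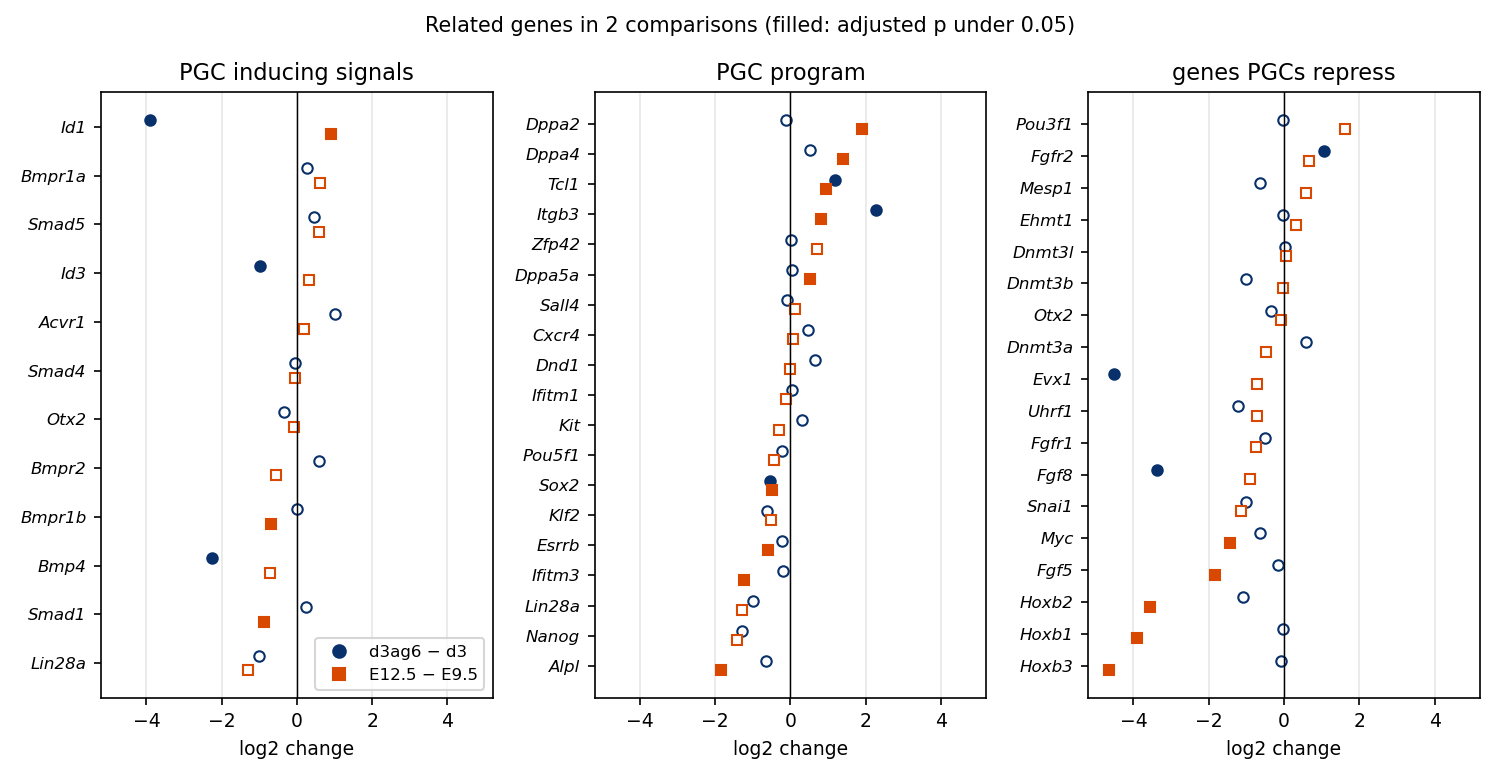
Log2 differences (horizontal axis) of genes tied to the founding factors (vertical axis, ordered by the embryonic difference), for d3ag6 minus d3 PGCLCs as blue circles and E12.5 minus E9.5 PGCs as orange squares, filled where the adjusted p is under 0.05. Id1, Bmp4 and Evx1 stand far left in d3ag6 PGCLCs, and Hoxb1, Hoxb2 and Hoxb3 in E12.5 PGCs, with the lower level of Evx1 and of the Hox genes below the filter level. Hoxb3 stood at 0 on an E12.5 array, so the size of its difference is not sure.

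Among known partners of the members, Tet2 rose and Cited2 fell in the embryo, where 23.6% of all genes were called. Of 11 tested cofactors, among them the arginine methyltransferase Prmt5, the PRDM14 partner Cbfa2t2 and Polycomb subunits, none passed in d3ag6 relative to d3 PGCLCs, to d6 female PGCLCs or to E12.5 PGCs. In E12.5 relative to E9.5 PGCs, Tet2, which oxidises methylated DNA, rose by 0.90 (adjusted p = 0.00290) in every fit with 1 array left out. Cited2, an AP-2 coactivator, fell by 1.32 (adjusted p = 0.00665), lost in 1 of 4 such fits, and it fell by 1.20 in d6 female relative to d3 PGCLCs (adjusted p = 0.0351), lost in all 4.

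Among relatives of the members, Prdm11 rose in the embryo, and less surely in culture. Of 9 tested PR domain genes other than the members, only Prdm11 was called in d3ag6 relative to d3 PGCLCs, where 10.6% of genes were. It rose by 0.88 (adjusted p = 0.0330). The call was lost with no filter (0.0644), with only the compared arrays (0.0728) and with a trended, robust variance (0.0578). With 1 array left out the difference was 0.70 to 1.05, and the call held only without d3 replicate 1. In E12.5 relative to E9.5 PGCs 2 of the 9 rose and 1 fell, where 23.6% of all genes were called. Prdm11 rose by 1.17 (adjusted p = 0.00535) and kept its call throughout, Prdm6 rose by 0.79 (adjusted p = 0.0158) and Prdm4 fell by 1.18 (adjusted p = 0.0373), each of these held in 1 of 4 fits with 1 array left out. Prdm16 was 2.23 higher in d3ag6 PGCLCs than in E12.5 PGCs (adjusted p = 0.00344), with any 1 array left out as well. It was the only 1 of the 9 called there, where 9.03% of all genes were. Of the other AP-2 genes only Tfap2a was above the filter level, and it passed in none of the 5 comparisons described for the lists. Over all 15 pairs it was called in d6 male PGCLCs against E12.5 PGCs (log2 difference −1.74) and in d3ag6 against d6 male PGCLCs (1.35).

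Genes whose levels ran most like each member over the 12 arrays were sought among 5139 tested genes whose group means spanned at least 1 log2 unit. The arrays share groups and codes, so these correlations describe the series and carry no test. For Prdm1 the nearest were the taurine transporter Slc6a6 (Pearson r = 0.912), the transferrin receptor Tfrc (0.906), Spint2 (0.906), Cerk (0.902) and the cell cycle kinase Cdk4 (0.899). For Prdm14 they were Sorl1 (0.938), Cndp2 (0.924), Upp1 (0.911), Gstm1 (0.909) and Etfb (0.903). For Tfap2c they were Efcab12 (0.960), Rtl8c (0.955), Dda1 (0.951), Ptprk (0.942) and Lratd2 (0.942). For Dppa3 they were Ptpre (0.944), Frat2 (0.917), Acot3 (0.907), Itgb3 (0.904) and Cpeb2 (0.892). Ranked by Spearman's rho in place of Pearson's r, between 0 and 2 of each 5 stayed among the nearest 5.

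Some of these genes ran over a wider range than the member. Rtl8c, near Tfap2c, averaged 6.92 in d3, 5.85 in d6 female, 4.13 in d3ag6 and 6.26 in d6 male PGCLCs, and 4.08 in E12.5 and 7.40 in E9.5 PGCs. Ptpre, near Dppa3, averaged 6.47 in d3 PGCLCs and between 9.01 and 9.22 in the other groups. Sorl1, near Prdm14, averaged 9.23 in d6 female PGCLCs and 7.29 in E12.5 PGCs. Among the members, Prdm1 and Prdm14 ran together (r = 0.851 over 12 arrays), and Tfap2c and Dppa3 ran apart (r = −0.487).

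The 4 genes lie on different chromosomes of the mouse build GRCm38.p6, by RefSeq gene spans. Prdm14 lies at chr1:13113428-13127163, Tfap2c at chr2:172545678-172558622, Dppa3 at chr6:122626424-122630271 and Prdm1 at chr10:44437174-44528558. The arrays read RNA near its 3′ end after amplification, so isoforms of a gene were not told apart.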

How the data were processed

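Per the labels, cells were sorted by FACS, RNA was purified on columns, 5 ng of it (the yield of 500 cells) was turned into cDNA, PCR-amplified (12 cycles in the initial round) and labelled for 1-colour Affymetrix arrays. Amplification from so few cells can widen the spread of dim genes. The deposited table gave 1 log2 value per probe set and array; the log base was read from the values, and the summarisation and normalization before deposit are not given in the sources used here. Exact zeros made up 2.07% to 2.3% of each array, and array medians were 4.73 to 4.87. Probe sets were named from the platform annotation: 34958 had 1 gene, 932 several and 9211 none.

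Values were quantile normalized between arrays, and 1 probe set per gene, with the highest mean, was kept. Genes with at least 2 arrays above 4.81 were tested (13436) with limma 3.58.1 in R 4.3.3 over all 12 arrays, 1 mean per group and 6 residual degrees of freedom, with two-sided tests and Benjamini-Hochberg adjustment over all genes tested in a comparison. The step was tested on simulated data with known changes. Groups and replicate numbers came from the titles. Same-numbered arrays deviated together with correlations of −0.25 to 0.55 over the pairs of groups, so the numbers were not used as pairs. The number of arrays limits the precision. Named were the members, the 5 genes most like each, and up to 4 called genes of each list and comparison by adjusted p. Members, lists and rules were chosen with earlier results of these data known. Alternatives were the deposited values, other filters, a floor, other probe sets, other variance models, subsets of arrays, a replicate block and leaving out each array.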

Additional observations from a re-analysis of the deposited data

How the results depend on the processing

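Over the tests of the members in all pairs of groups, the F test and the interaction, 736 values under an alternative kept their direction and side of the threshold, 66 lost a call, 31 gained one and 34 turned in sign, the last all in differences that had not been called. With 2 arrays a group, each of the 11 calls of a member between groups was lost with some 1 array left out.

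Calls lost: Tfap2c in d3ag6 against d3 PGCLCs with the mean of its probe sets (−0.82, adjusted p = 0.0777), the third probe set (−0.96, 0.346), no filter (−0.60, 0.0558) and only the compared arrays (−0.60, 0.101). Tfap2c in E12.5 against E9.5 PGCs was lost with only the compared arrays (−0.68, 0.0696) and the third probe set (−1.36, 0.113), and its F test with the third probe set (0.0676). Dppa3 in d3ag6 against d3 PGCLCs was lost with no filter (0.55, 0.0686) and only the compared arrays (0.55, 0.118). Of the other pairs, Tfap2c in d3 PGCLCs against E12.5 PGCs was lost with the mean of probe sets (0.56, 0.155) and the third (0.11, 0.925), in d6 female PGCLCs against E12.5 PGCs with the mean (0.0905), the second (0.0511) and the third (0.320) and no filter (0.0692), in d6 male PGCLCs against E12.5 PGCs with the mean (0.0579), the third (0.205), no filter (0.0666) and only the compared arrays, and in d3ag6 PGCLCs against E9.5 PGCs with only the compared arrays (0.113). With only the compared arrays and with no filter, Dppa3 in d3 PGCLCs was lost against E9.5 PGCs (0.279 and 0.0783) and E12.5 PGCs (0.0717 and 0.0602), against E9.5 PGCs also with deposited values (0.0552), and Prdm14 in d6 male PGCLCs against E12.5 PGCs with only the compared arrays (0.0872).

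Calls gained: with the trended, robust variance the F tests of Dppa3 (adjusted p = 0.00536) and Prdm14 (0.0303) passed, as did Dppa3 in d6 female against d3 PGCLCs (0.43, 0.0222), Prdm1 in E12.5 against E9.5 PGCs (−0.77, 0.04996), Tfap2c in d3ag6 against d6 female PGCLCs (−0.44, 0.0363), and Prdm14 in d3ag6 PGCLCs against E12.5 PGCs (0.53, 0.0387) and in E12.5 against E9.5 PGCs (−0.43, 0.0452). The stricter filter passed the F tests of Dppa3 (0.0382) and Prdm14 (0.0378) and the same Prdm14 differences (0.0415 and 0.0490). The floor passed the F tests of Dppa3 (0.0372) and Prdm14 (0.0391) and Prdm14 in d3ag6 PGCLCs against E12.5 PGCs (0.0444), as did the 8 arrays of code EA1013 (0.0463). Prdm1 passed against E12.5 PGCs with the trended variance, the stricter filter and only the compared arrays, in d6 female PGCLCs (0.0384, 0.0401 and 0.0159) and in d6 male PGCLCs (0.0449, 0.0480 and 0.0416), the second also with deposited values (0.0496). Dppa3 in d6 male against d3 PGCLCs (0.0175) passed with the trended variance. Tfap2c in d3ag6 against d6 male PGCLCs passed with the trended variance (0.0241), the stricter filter (0.0428), the floor (0.0443), and the mean of probe sets (0.0261), the second (0.0469) and the third (0.0482).

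The replicate block gave the F test of Prdm14 an adjusted p of 0.0497 and changed no other call of the members. Among the list genes named above, Id1 (0.0561) and Bmpr1b (0.0506) lost their calls in E12.5 against E9.5 PGCs, and Nanog (0.0545) in d3ag6 against d6 female PGCLCs. The check of pairing used 15 pairs of groups, of which d6 male and E9.5 had the highest correlation (0.55).

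Signs turned, none of them called: with deposited values Dppa3 in E12.5 against E9.5 PGCs (0.06) and, in d6 female against d6 male PGCLCs, Prdm1 (−0.005), Prdm14 (−0.02) and Tfap2c (−0.005). For Tfap2c, the mean of probe sets and the third probe set turned d3ag6 PGCLCs against E12.5 PGCs (−0.26 and −0.85), d6 female against d3 PGCLCs (0.14 and 0.78) and d6 male against d3 PGCLCs (0.19 and 0.94). They also turned d6 female against d6 male PGCLCs (−0.058 and −0.16, and −0.033 with the second probe set), and the third probe set turned the interaction (−0.39). The cause was not tested.

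With 1 array left out, the differences ran over these ranges. Dppa3 ran from 0.51 to 0.60 in d3ag6 against d3 PGCLCs, −0.025 to 0.14 in d3ag6 PGCLCs against E9.5 PGCs, −0.037 to 0.093 in d6 female against d6 male PGCLCs, −0.12 to 0.0058 and −0.15 to 0.014 in d6 female PGCLCs against E12.5 and E9.5 PGCs, and −0.088 to 0.073 in E12.5 against E9.5 PGCs. Prdm1 ran from −0.73 to 0.04 in d3 PGCLCs against E9.5 PGCs, −0.26 to 0.51 in d3ag6 against d3 PGCLCs, −0.44 to 0.010 in d3ag6, −0.13 to 0.30 in d6 female and −0.20 to 0.23 in d6 male PGCLCs against E9.5 PGCs, and −0.024 to 0.75 in d6 male against d3 PGCLCs, with an F test at 0.0445 to 0.420. Prdm14 ran from −0.16 to 0.035 in d3 PGCLCs against E9.5 PGCs, −0.19 to 0.046 in d3ag6 and −0.094 to 0.14 in d6 female PGCLCs against d6 male PGCLCs. Tfap2c ran from −0.14 to 0.10 in d3 PGCLCs against E9.5 PGCs, −0.62 to −0.58 in d3ag6 against d3 PGCLCs and −0.80 to −0.56 in E12.5 against E9.5 PGCs, with an F test at 0.0144 to 0.0625.

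Counts of all genes called moved with fits of only the compared arrays, to 765 against 1430 in d3ag6 against d3 PGCLCs, 569 against 859 in d3ag6 against d6 female PGCLCs, 148 against 545 in d6 female against d3 PGCLCs and 291 against 1424 in d6 male PGCLCs against E9.5 PGCs. With 1 array left out they ran from 1387 to 2541 against 3170 in E12.5 against E9.5 PGCs and from 12 to 239 against 197 in d6 female against d6 male PGCLCs. In E12.5 against E9.5 PGCs with 1 array left out, an alternative chosen after seeing the data, 2 to 6 of the 19 germline genes rose and 2 to 4 fell, and 4 to 7 of the 18 repressed genes fell and at most 1 rose, which does not show that they were the same genes.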
